A study of Mus musculus with 6 samples.

Results

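The 10 mouse genes Glis3, Tcf7l2, Hhex, Jazf1, Cdkal1, Thada, Igf2bp2, Camk1d, Adcy5 and Wfs1 were examined for MafA binding and for the promoter mark H3K4me3 in MIN6 cells. They are the mouse counterparts of genes named at human type 2 diabetes loci and were taken as a fixed list of 10 among 21883 protein-coding genes. A peak was counted for a gene when it touched the gene body or the 10 kb on either side. The 4 deposited peak lists held 67 such peaks in MafA replicate 1, of 33013 in all. They held 96 of 42747 in MafA replicate 2, 10 of 16020 in H3K4me3 replicate 1 and 10 of 16904 in H3K4me3 replicate 2. MIN6 is a mouse insulinoma line that makes insulin, and all libraries came from it, with no drug, genotype or time differing between them. The groups differ in the antibody used for CUT&RUN, in which a nuclease tethered to an antibody cuts out the DNA around its target. The libraries form 3 groups of 2 replicates: MafA as the cells express it, H3K4me3 as the control for a known mark, and IgG for unspecific cutting. Each library started from 500000 cells permeabilised in 0.01% digitonin. No IgG file was used here, and the labels do not say whether replicates came from separate cultures.

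MafA is a basic leucine zipper factor that activates the insulin genes and other genes of mature beta cells, and it binds both promoters and distant enhancers. H3K4me3 is a histone mark placed at active and poised gene starts, most of them rich in CpG dinucleotides. Common variants near the 10 genes are linked to type 2 diabetes risk in people, many of them through insulin secretion, and most lie in noncoding DNA. Binding sites of a beta cell factor inside such genes are therefore of interest, although no variant position was compared here.

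The beta cell label was checked with marker genes. An H3K4me3 region found in both replicates lay at the start of 9 of 10 beta cell markers, among them Pdx1, Nkx6-1 and Slc2a2, and was absent from Ins1. Markers without an entry in the promoter table were read at either gene end. Of protein-coding genes with an entry, 57.6% had such a region at a start. It lay at 0 of 5 acinar and duct markers and 1 of 5 blood, liver and muscle markers (Spi1). Among markers of other islet cells, the start of Gcg carried it and those of Sst and Ppy did not. Here and below, a region is the union of peaks from both replicates that overlap by at least 1 bp. There were 25894 MafA and 15573 H3K4me3 regions in all. Read totals are not in the lists, but whole fragments at each summit could be recovered from the deposited fold enrichment and p-value. A median summit held 25 and 46 fragments in MafA replicates 1 and 2, and 760 and 263 in H3K4me3 replicates 1 and 2.

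MafA regions were found at 7 of the 10 genes and numbered 56. Glis3 had 21, Cdkal1 13, Jazf1 9, Camk1d 4, Thada 4, Adcy5 3 and Wfs1 2, while Tcf7l2, Hhex and Igf2bp2 had none. Of all protein-coding genes, 44.0% had a MafA region by the same rule. The genes are long, with a median of 234 kb against 17.2 kb over all protein-coding genes, and a longer window has more room for a region. Among the 2428 protein-coding genes of at least 100 kb, 78.5% had a MafA region, and 6 of the 8 listed genes of that length did. The share is close to the background for long genes. The MafA lists differed: replicate 1 had a peak at 7 of the 10 genes, against 48.3% of protein-coding genes, and replicate 2 had one at all 10, against 58.5%. Taking peaks of replicate 2 alone gave 96 regions in place of 56, so the number depends on the library. 

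**Figure D1:**
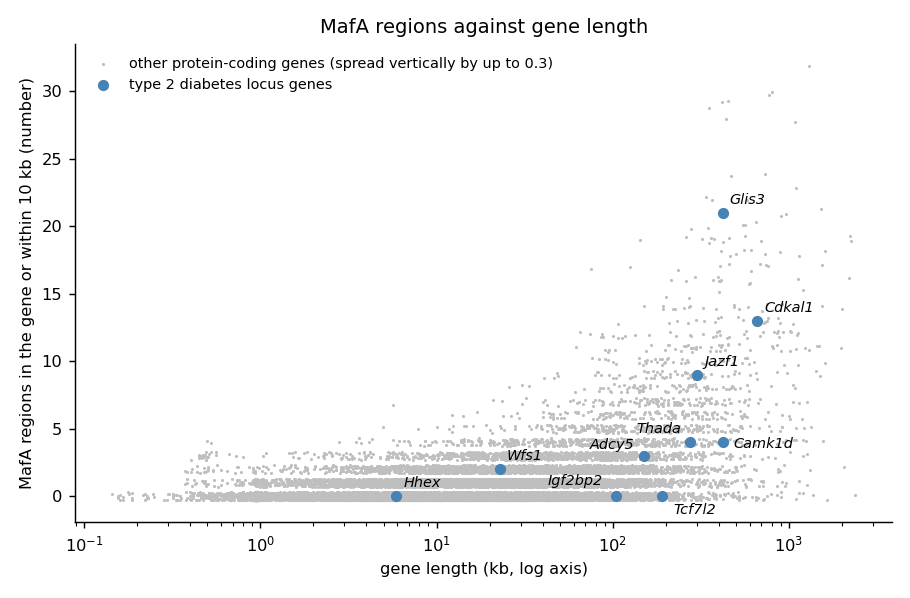
Number of MafA regions found in both replicates (vertical axis) against gene length in kb (horizontal log axis) for protein-coding genes. Glis3 with 21 regions stands above most genes of its length, while Tcf7l2 and Igf2bp2 lie at 0.

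Per 100 kb of window, the 10 genes together held 2.03 MafA regions, against 1.34 over the windows of genes of at least 100 kb. Without Glis3 the value was 1.51, from 35 regions. Glis3 alone had 4.76 per 100 kb, and 95.8% of genes of at least 100 kb had a lower density. Wfs1 had 4.66 in a short window, Jazf1 2.81, Cdkal1 1.90, Adcy5 1.75, Thada 1.35 and Camk1d 0.906. Camk1d is about as long as Glis3, at 421 kb each, and held 4 regions against 21. Only 14 of the 21883 genes had more MafA regions than Glis3, and 89 had more than Cdkal1. The numbers depend on the peaks admitted. Glis3 had 13 regions with peaks of −log10 q 5 or more. It had 6 among the 16020 peaks of each library strongest by fold enrichment. Cdkal1 had 12 and 7 under these settings, and 26 from replicate 2 alone.

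**Figure D2:**
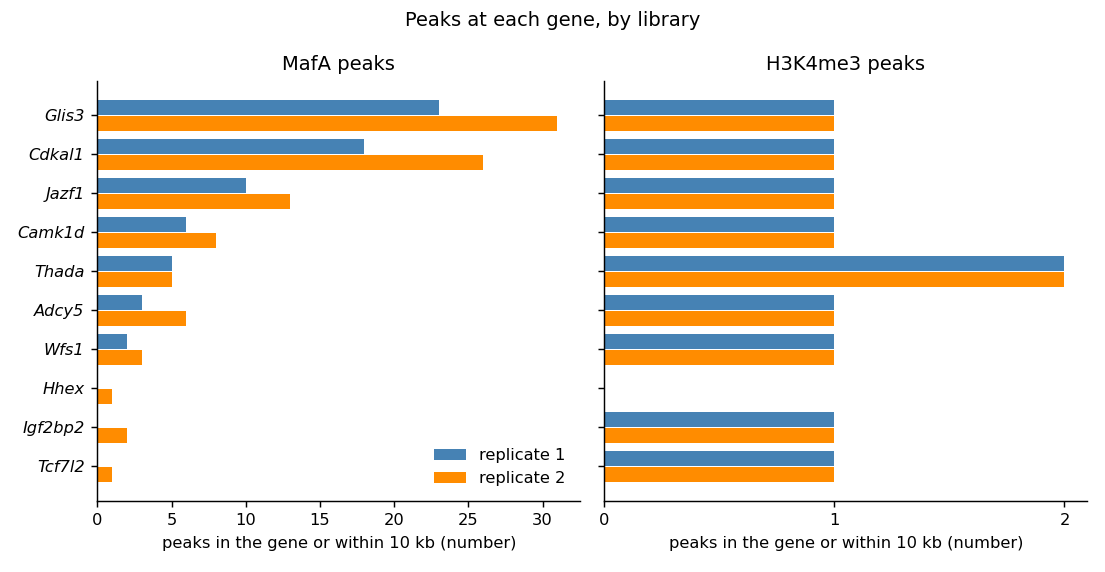
Number of MafA peaks (left) and H3K4me3 peaks (right) in each gene or within 10 kb, with 1 bar per library and no error bars. Replicate 2 gave more MafA peaks than replicate 1 at 9 genes and as many at Thada, while the H3K4me3 replicates gave equal numbers at every gene.

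An H3K4me3 region lay in the window of 9 of the 10 genes, against 65.2% of protein-coding genes, and Hhex had none. At 8 of the 10 it lay within 1 kb of an annotated start, against 57.6% of the 17491 protein-coding genes with an entry in the promoter table. The H3K4me3 replicates gave the same peaks at all 10 genes. Wfs1, which encodes the endoplasmic reticulum protein wolframin, had the highest mean H3K4me3 fold enrichment at its start, 25.5 in replicate 1 and 24.9 in replicate 2. Jazf1 had 27.1 and 16.1, Glis3 17.1 and 15.4, Camk1d 14.8 in each replicate, Thada 12.1 and 14.2, Adcy5 13.5 and 10.5, and Cdkal1 11.5 and 10.7. Igf2bp2, which encodes an RNA-binding protein of fetal growth, was the weakest of the 8, at 5.18 and 3.47, with 135 and 39 fragments at the summits. Its mean stood at the 7.28th percentile of H3K4me3 regions. The values of Igf2bp2 did not overlap those of the other 7 genes in either replicate.

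Tcf7l2 and Hhex were without the mark at their annotated starts. Tcf7l2 encodes a transcription factor of the Wnt pathway and Hhex a homeodomain factor that adult islets express in delta cells. Inside Tcf7l2 there was 1 narrow H3K4me3 region of 345 bp, at chr19:55792907-55793251, 51.3 kb downstream of the first start. Its fold enrichment was 4.16 and 4.65, with 51 and 27 fragments, and its mean stood at the 7.81st percentile of H3K4me3 regions. Hhex had no H3K4me3 peak in either replicate in its 25.9 kb window.

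In base composition, the promoters of these 2 genes lay within the range of the marked ones. Each promoter entry spans 250 bases before and 50 after a start, from RefSeq on GRCm38.p6, and all 10 genes matched, with 13 entries. Among 2690 promoters of protein-coding genes with at least 70% G and C, 92.9% had an H3K4me3 region within 1 kb and 7.06% had none. The first Tcf7l2 promoter (70.0% G and C, 34 CpG) and the Hhex promoter (75.7%, 37 CpG) belonged to the smaller class. The Wfs1 promoter (70.0%, 30 CpG) carried the mark. The Cdkal1 promoter had 39% G and C and 10 CpG and was marked, as were 16.9% of 6242 promoters under 50%. The sequences of these 4 promoters follow, 5′ to 3′ on the strand of the gene, with each CpG in capitals. They are shown to set the unmarked promoters beside marked ones. They lie at chr19:55741560-55741859 (plus strand, Tcf7l2), chr19:37434591-37434890 (plus strand, Hhex), chr5:36988933-36989232 (minus strand, Wfs1) and chr13:29855624-29855923 (minus strand, Cdkal1).
Tcf7l2: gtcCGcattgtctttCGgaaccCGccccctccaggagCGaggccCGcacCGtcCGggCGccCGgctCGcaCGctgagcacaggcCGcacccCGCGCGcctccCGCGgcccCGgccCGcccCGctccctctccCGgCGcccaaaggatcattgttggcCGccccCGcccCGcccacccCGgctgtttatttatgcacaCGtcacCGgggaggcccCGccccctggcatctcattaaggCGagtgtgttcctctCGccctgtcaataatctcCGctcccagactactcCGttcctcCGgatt
Hhex: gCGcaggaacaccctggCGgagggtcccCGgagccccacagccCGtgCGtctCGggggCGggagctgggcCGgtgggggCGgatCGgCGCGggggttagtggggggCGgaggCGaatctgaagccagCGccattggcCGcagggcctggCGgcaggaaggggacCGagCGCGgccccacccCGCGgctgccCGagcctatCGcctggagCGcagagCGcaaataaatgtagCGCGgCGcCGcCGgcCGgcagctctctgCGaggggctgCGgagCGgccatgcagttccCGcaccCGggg
Wfs1: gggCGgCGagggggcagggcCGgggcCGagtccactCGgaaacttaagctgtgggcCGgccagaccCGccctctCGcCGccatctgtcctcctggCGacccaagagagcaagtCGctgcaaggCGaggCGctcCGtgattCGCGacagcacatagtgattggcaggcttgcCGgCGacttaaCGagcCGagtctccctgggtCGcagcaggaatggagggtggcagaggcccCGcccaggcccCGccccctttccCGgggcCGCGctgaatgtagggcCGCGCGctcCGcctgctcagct
Cdkal1: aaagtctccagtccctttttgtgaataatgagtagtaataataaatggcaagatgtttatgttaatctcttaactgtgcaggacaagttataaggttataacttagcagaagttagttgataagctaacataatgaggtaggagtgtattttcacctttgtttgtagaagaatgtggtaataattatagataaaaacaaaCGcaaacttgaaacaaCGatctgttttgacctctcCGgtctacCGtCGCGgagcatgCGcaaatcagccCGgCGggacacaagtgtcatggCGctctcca

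Of the transcription factor genes, Glis3 had by far the most MafA regions. Glis3 encodes a zinc finger factor needed for the formation of beta cells and for insulin gene expression. It spans chr19:28258851-28680265 on the minus strand, and the 21 regions lay inside the gene, from 9.95 to 374 kb downstream of its start. Most were weak by fold enrichment. The median over the 21 was 3.02, against 6.35 over the 35 regions of the other genes and 5.75 over all MafA regions. Of the 21, 10 had a mean fold enrichment under 3, against 1 of the other 35. The 2 strongest by mean fold enrichment were above the median of the 21. The region at chr19:28519679-28522985 had 9.91 and 9.90 in replicates 1 and 2, with 308 and 622 fragments at the summits. The region at chr19:28415913-28417225 had 8.24 and 6.02, with 97 and 139 fragments. In replicate 2, chr19:28365495-28367283 and chr19:28394255-28396060 were above it, with 6.99 and 6.04. The region at chr19:28668960-28671847 held far more fragments, 279 and 567, at a fold enrichment of 6.10 and 5.73. The summits of the region at chr19:28519679-28522985 lay 19 bp apart, so both replicates put it at 1 place.

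**Figure D3:**
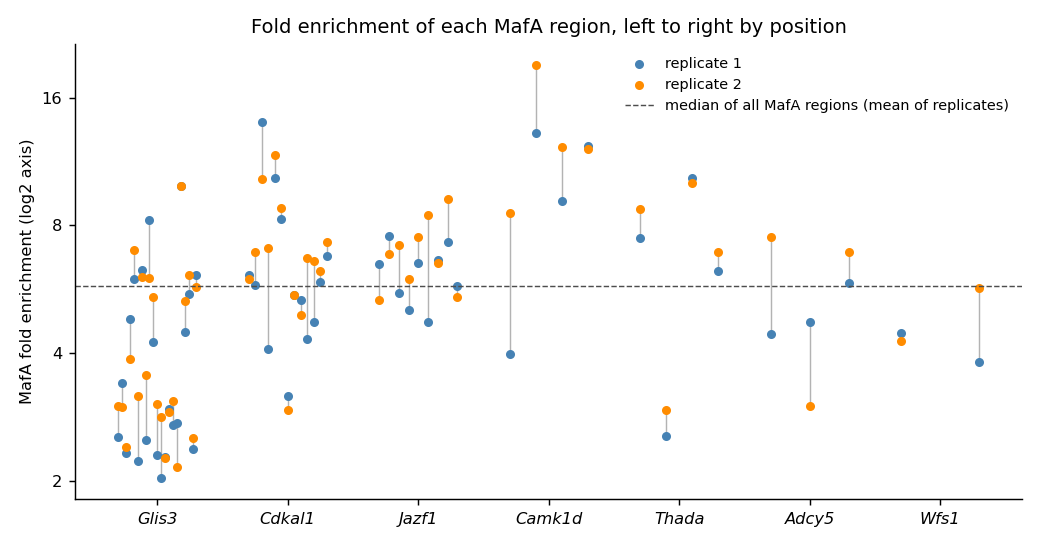
MafA fold enrichment (log2 vertical axis) of every region at the 7 genes that had any, with a point for each replicate joined by a line and regions in order of position. The dashed line at 5.75 is the median of all MafA regions, and 15 of the 21 Glis3 regions lie below it in both replicates.

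Glis3 lay in a stretch of chromosome 19 with a high modelled background. The background is the signal that the peak caller models for a summit without binding, and fold enrichment divides by it. At the 21 Glis3 regions it ran from 10.9 to 44.9 (median 17.5) in replicate 1 and from 16.4 to 73.0 (median 26) in replicate 2. At the other genes' 35 regions the background ran from 1.62 to 22.5 (median 3.51) and from 2.58 to 35.0 (median 5.0). The ranges thus overlapped. Over all MafA regions the medians were 4.21 and 6.00. The lowest Glis3 value was above that of 85.5% of all MafA regions in replicate 1 and 84.7% in replicate 2. Fragments at the summits were also more numerous, with medians of 58 and 135 at Glis3 against 27 and 56 at the other genes.

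The high background was not limited to the gene. Per 1 Mb of chromosome 19, its median in replicate 1 was 4.71 from 25 Mb, 11.3 from 26 Mb, 16.5 from 27 Mb, 16.6 from 28 Mb and 4.56 from 29 Mb. In replicate 2 the same bins gave 8.96, 18.0, 25.5, 26 and 6.50. Of 1160 bins with at least 10 MafA regions, 3 reached the value of the Glis3 bin in replicate 1 and 2 did in replicate 2, that bin included. Over the 2 Mb on the downstream side of the start, outside the gene window, 56 regions had medians of 15.9 and 23.2. From 3 to 5 Mb on that side, 38 regions had 4.42 and 7.15, and from 0.05 to 5 Mb upstream of the start 47 regions had 4.85 and 7. Single upstream regions were as high as those of Glis3, such as chr19:28963637-28964875 with 19.7 and 32, so the upstream edge was not sharp in every region. The H3K4me3 libraries had a high background at the Glis3 start, 207 and 205, against 4.32 to 32 and 5.0 to 25 at the other genes. The control behind the modelled background is not given, so the MafA and H3K4me3 lists may share it. The H3K4me3 region at the Glis3 start, chr19:28677485-28680801, had 8562 and 3175 fragments at the summits, which fell on the same base in both replicates, and only 4 of 15573 regions had more in either replicate. Its fold enrichment was near the middle of the list, at the 55.7th percentile. DNA copy number was not measured in these cells. The part of the high background in the number and the fold enrichment of the Glis3 regions was not tested.

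**Figure D4:**
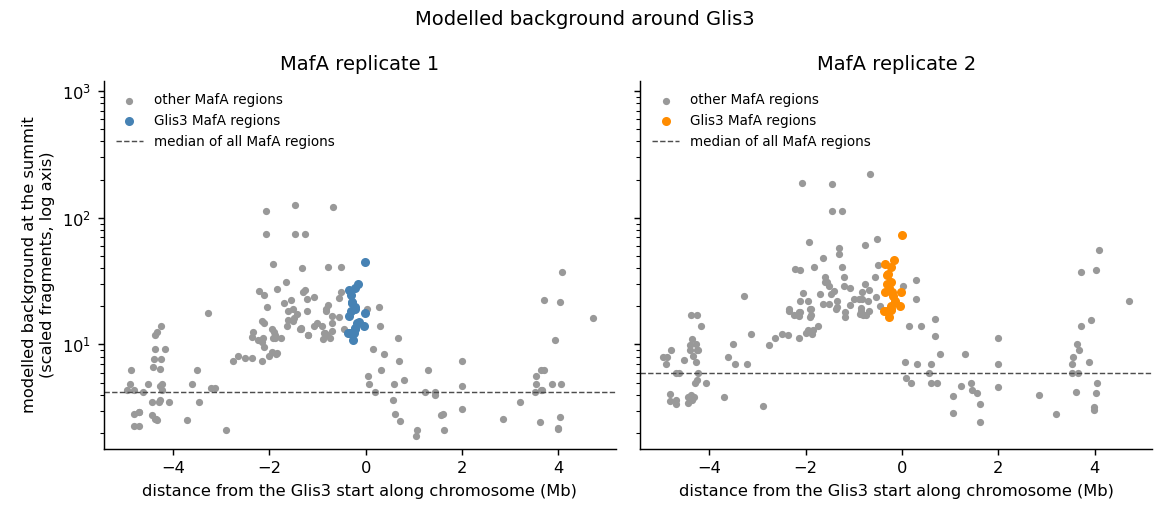
Modelled background at the summit in scaled fragments (log vertical axis) of MafA regions within 5 Mb of the Glis3 start, in replicate 1 (left) and 2 (right), with distance along the chromosome in Mb and the gene extending to negative values. Coloured points are the 21 Glis3 regions, and the dashed lines are the medians of all MafA regions, 4.21 and 6.00.

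Jazf1 encodes a zinc finger cofactor of nuclear receptors, and its 9 MafA regions were of middling strength and close to each other in value. They lay inside the gene, chr6:52768065-53068624, between 53.6 and 273 kb downstream of its first start. Fold enrichment ran from 4.74 to 7.54 in replicate 1 and from 5.34 to 9.25 in replicate 2. The strongest, at chr6:53005806-53006964, had 7.32 and 9.25, with 32 and 73 fragments. Tcf7l2 and Hhex each had a MafA peak in replicate 2 alone. At Tcf7l2 it lay just before the first start, at chr19:55741313-55741700, with a fold enrichment of 5.27 and 41 fragments, and its summit was 0.237 kb upstream. At Hhex it lay inside the gene, at chr19:37437810-37438307, with 5.22 and 33 fragments. Their fold enrichment was above the median of that list, 4.82, and their fragments were below its median, 46. They had no counterpart in replicate 1.

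The genes with roles in RNA differed widely. Cdkal1 encodes an enzyme that modifies transfer RNA for lysine codons. Its 13 MafA regions lay inside the gene, chr13:29191746-29855683, and none was closer than 102 kb to the start. They fell in an upstream group of 6, from 102 to 245 kb, and a downstream group of 7, from 491 to 637 kb. Some peaks found in 1 replicate alone lay nearer the start. Others lay among these regions or beyond them, as far as 665 kb from the start. Among the nearer ones were peaks at 74.8 kb in replicate 1, with 5.12, and at 86.0 and 29.2 kb in replicate 2, with 5.72 and 5.43. The strongest region was at chr13:29308868-29310092, with 14.0 and 10.3 and with 37 and 48 fragments. The next, at chr13:29354111-29356724, had 10.4 and 11.7 and far more fragments, 82 and 187. The order of these 2 therefore differed between fold enrichment and fragments. At the weakest, chr13:29364610-29365121, the values were 3.17 and 2.94.

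Thada, whose yeast counterpart takes part in transfer RNA methylation, had 4 MafA regions, of which 2 lay in the gene. These were at chr17:84365792-84366486, with 10.4 and 10.1, and at chr17:84369643-84370915, with 6.26 and 6.94. The other 2 lay past the downstream end of Thada. The region at chr17:84183211-84183918 had 7.48 and 8.76. The region at chr17:84187551-84188861 had 2.56 and 2.93 and overlapped an H3K4me3 region and the body of Zfp36l2, which encodes a protein that speeds the decay of messenger RNA. Both are also within 10 kb of Zfp36l2, so the rule counts them for either gene. Igf2bp2 had MafA peaks in replicate 2 alone, at chr16:22106317-22106729 with 4.42 and 19 fragments and at chr16:22107792-22108239 with 4.67 and 31 fragments.

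Camk1d and Adcy5 act in signalling by calcium and cyclic AMP, which drive insulin release. Camk1d encodes a calmodulin-dependent kinase and held the MafA region with the highest fold enrichment of the 10 genes, at chr2:5314297-5315715. Its fold enrichment was 13.2 and 19.1, with 77 and 178 fragments, and its mean stood at the 95.6th percentile of MafA regions. By fragments the strongest Camk1d region stood at the 88.8th percentile, below the strongest of Glis3 (99.7th), Cdkal1 (89.98th) and Wfs1 (88.9th). The region lay inside the gene, 399.9 kb downstream of the first start. Another 2 regions in the gene had 9.11 and 12.3, at chr2:5595404-5596443, and 12.3 and 12.1, at chr2:5610159-5610923. The fourth, past the downstream end at chr2:5286292-5286923, had 3.99 and 8.55, and its summits lay 470 bp apart, so its mean joins different positions.

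Adcy5 encodes an adenylyl cyclase, which makes cyclic AMP. Its 3 MafA regions lay inside the gene, chr16:35154494-35305743, from 34.9 to 99.2 kb downstream of the start. The strongest by its mean, at chr16:35253251-35254347, had 5.85 and 6.91, with 50 and 119 fragments. The region at chr16:35205459-35206243 had 4.74 and 3.01, and the region at chr16:35189194-35189984 had 4.44 and 7.51. The replicates gave different orders: in replicate 2 the last of these was the highest of the 3.

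Wfs1, mutated in Wolfram syndrome, was the only gene of the 10 with a MafA region at its start, against 19.9% of protein-coding genes with a promoter entry. The region, at chr5:36988667-36989562, had 3.81 and 5.68 and overlapped the strong H3K4me3 region there. Its summits held 67 and 189 fragments over a background of 16.8 and 24.0. They lay on average 0.336 kb upstream of the start, outside the 300 bases printed above, although the region itself covers the start. The second Wfs1 region, inside the gene at chr5:36977497-36978190, had 4.46 and 4.27, with 16 and 33 fragments. By fold enrichment the start region stood at the 31.5th percentile of all MafA regions. Ranked by fragments, the strongest Wfs1 region stood at the 88.9th percentile, and that of Glis3 at the 99.7th.

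Ordered by the mean fold enrichment of the strongest MafA region, Camk1d led with 16.2 ± 4.2 (SD, n = 2 here and below). Cdkal1 followed with 12.1 ± 2.62, Thada with 10.2 ± 0.211, Glis3 with 9.91 ± 0.00733, Jazf1 with 8.28 ± 1.36, Adcy5 with 6.38 ± 0.751 and Wfs1 with 4.75 ± 1.32. The replicate values of Camk1d and Cdkal1 overlapped, as did those of Cdkal1 and Thada, so these neighbours do not differ beyond their spread. The lower neighbours in this order did not overlap, which with 2 replicates does not show that they differ. The regions were also chosen by their mean. In replicate 2 another Adcy5 region had 7.51, above the 7.32 of the Jazf1 region in replicate 1. The order depends on the window: with 50 kb on either side, Cdkal1 reached 16.4, above Camk1d, Wfs1 rose to 12.7 and Thada to 11.1, while the others kept their values. The median over the 7 genes was 9.91, against 6.19 over all 9636 protein-coding genes with a region and 9.08 over the 1906 of these of at least 100 kb. The maximum tends to be larger where more regions are counted, and the 7 genes hold from 2 to 21. Of the 56 regions, 29 were above the median of all MafA regions and 3 were at or above the 90th percentile, 2 of them at Camk1d and 1 at Cdkal1.

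Most of the MafA regions lay inside the genes, away from their starts. Of the 56, 53 were inside the genes, 3 downstream and none upstream. Only the Wfs1 start region lay within 1 kb of an annotated start of its own gene, and starts of other genes were not compared. In all, 53 (94.6%) were over 10 kb from the nearest start of the same gene and 37 (66.1%) over 100 kb. The median distance was 186 kb. At all genes of at least 100 kb with a promoter entry, 82.9% of 6914 pairs of gene and region were over 10 kb apart and 43.1% over 100 kb, with a median of 79.6 kb. The room for distance is set by gene length, whose median was 421 kb over the 56 regions and 257 kb over those pairs. Only 2 of 56 overlapped an H3K4me3 region (3.57%, 95% Wilson interval 0.985 to 12.1%), at Wfs1 and past the downstream end of Thada, at the body of Zfp36l2. The interval takes regions as independent, although 43 of the 56 lay at Glis3, Cdkal1 and Jazf1, so it is no test against other shares. Over all MafA regions the share was 23.5%, and over the 8746 at genes of at least 100 kb it was 16.1%. The part of gene length in these shares was not tested. The gene table holds no exons, so regions inside a gene were not divided into exonic and intronic.

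**Figure D5:**
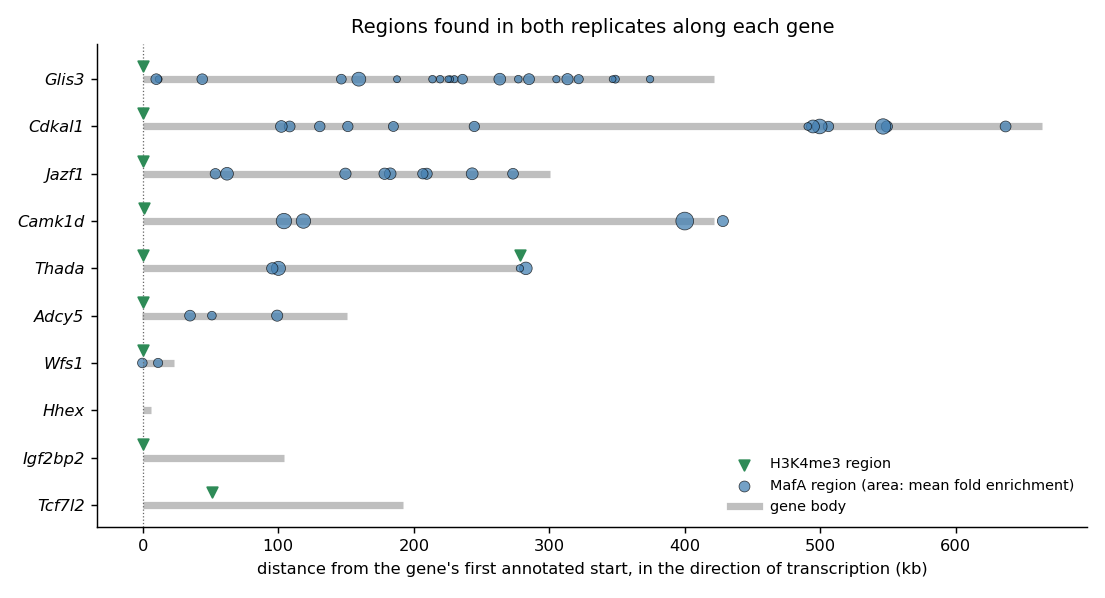
MafA regions (circles, area by mean fold enrichment) and H3K4me3 regions (triangles) found in both replicates, by distance in kb from each gene's first annotated start in the direction of transcription, with gene bodies as grey bars. The H3K4me3 regions sit at the starts of 8 genes, and the MafA regions are spread through the gene bodies.

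Replicate agreement at the 10 genes was near that of the full lists. In replicate 1, 59 of 67 MafA peaks (88.1%) overlapped a replicate 2 peak, against 81.2% of the full list. In replicate 2, 56 of 96 (58.3%) had a partner, against 60.8%. Summits of the 2 replicates lay within 100 bp of each other in 39 of the 56 regions (69.6%), against 64.9% of all MafA regions. The ratio of fragments in replicate 2 to replicate 1 had a median of 2.15 at the 56 regions and 2.10 over all, and ran from 1.30 to 3.61. The unmatched peaks were weaker, with a median fold enrichment of 4.67 for the 8 in replicate 1 and 3.89 for the 40 in replicate 2. Unmatched peaks also lay at 4 other gene starts. In replicate 2 they had 3.35 and 120 fragments at Thada, 2.08 and 620 fragments at Glis3, and 2.03 and 45 fragments at Cdkal1. In replicate 1 there was 1 at the Camk1d start, with 3.22 and 24 fragments. Upstream of Wfs1, replicate 2 had 1 at chr5:36990072-36990461 with 5.34 and 53 fragments.

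A further 46 genes named at human type 2 diabetes loci were counted by the same rule. A MafA region lay at 38 of them, against 44.0% of all protein-coding genes. Summed gene by gene, their regions numbered 150, and a region in the windows of both Kcnj11 and Abcc8 counted for each. This sum came to 2.42 per 100 kb of window, against 2.03 for the 10 genes and 1.48 over all protein-coding genes. Gene length was not matched between these sets. The strongest region per gene had a median fold enrichment of 8.47. Most regions lay at Abcc8, the sulphonylurea receptor of the beta cell potassium channel, with 17, at the diacylglycerol kinase gene Dgkb with 13 and at Cmip with 10. The highest fold enrichment was at Grk5, a kinase of G protein-coupled receptors, with 20.8 ± 2.86, followed by Dgkb with 20.7 ± 2.29 and Abcc8 with 17.1 ± 1.37. The replicate values of each of these 3 genes overlapped those of Camk1d. An H3K4me3 region lay at the start of 37 of the 46, against 57.6% of protein-coding genes with a promoter entry. For the 12 without an entry, either gene end was read.

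The genes most like Glis3 and Camk1d were found by the distance between log2 window length, log2 numbers of MafA and H3K4me3 regions and log2 highest fold enrichment, each scaled by its SD over 9636 genes. For Glis3 they were Tnr with 17 MafA regions, Magi1 with 18 and Tenm4 with 17, at distances of 0.560, 0.676 and 0.875. For Camk1d they were Fmn2, Dcdc5 and Thrb, each with 4 MafA regions, at 0.314, 0.342 and 0.347.

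The promoters of the 10 genes were searched for letters of the MAF recognition element. The search took both strands and 4 forms: TGCTGA, the longer TGCTGAC, and the outer letters of the MAF palindromes named T-MARE and C-MARE. These outer letters are TGC, followed by GCA after 7 bases of any kind in T-MARE and after 8 in C-MARE. At least 1 form was found in 4 of the 13 promoter entries, against 29.1% of 21262 promoters. TGCTGA was found in 1 of the 13 promoter entries, the downstream start of Jazf1, and in 18.1% of all promoters. TGCTGAC was in none, against 4.30% of promoters. The T-MARE letters were in 3 entries, the downstream starts of Tcf7l2 and Jazf1 and the start of Hhex, against 7.70%, and in Jazf1 it overlaps TGCTGA. The C-MARE letters were in the Thada entry, against 7.07%. The Wfs1 promoter entry, at the only start of the 10 genes with a MafA region, held none of the 4. No match says only that these letters are not in this window, which the MafA summits at Wfs1 lie outside.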

How the data were processed

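CUT&RUN libraries of MIN6 cells were grouped by their titles into MafA, H3K4me3 and IgG, with 2 replicates each. Per the submitters' processing notes, MACS2 was used with the builds GRCm38 and mm10. The authors deposited 1 peak list per library. Version, aligner, duplicate handling and control are not given in the sources used here. The deposited fold enrichment is a ratio of summit pileup to modelled background. The deposited −log10 p-values and q-values refer to the summit, with −log10 q no lower than 2.00. The deposited score was not used.

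Fragments were recovered by solving MACS2's fold enrichment (pseudocount 1) and Poisson p-value for whole fragments times a library factor between 0.2 and 1, within a relative tolerance of 0.0001. The factors of the first and second H3K4me3 library were 0.415 and 0.997, with 99.5% and 99.96% of peaks solved. Those of the first and second MafA library were 1 and 0.746, with 100% and 99.995% solved. Background is in scaled fragments. Recovery and overlap were tested on simulated data. The scripts ran in Python 3.11.15 (matplotlib 3.10.9, scipy 1.17.1, pandas 2.3.3, numpy 2.4.6). Gene positions and promoters came from RefSeq tables of GRCm38.p6; mitochondrial genes were left out. Intervals cover counting error only.

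The genes, lists and alternatives were chosen with earlier results of these data known, so no list was tested; with 2 libraries against 2, no exact permutation test could go below p = 0.333. All 10 genes are described. Other genes were named by rule: the 3 of the further loci with most MafA regions, the 3 with the highest fold enrichment, genes sharing a region, and the 3 genes nearest to Glis3 and to Camk1d. As alternatives, results were recomputed with peaks of −log10 q 5 or more, the 16020 strongest peaks of every library, 50% reciprocal overlap, the gene body alone, 50 kb either side, other measures of strength and leaving out each library. The strongest peaks were those with the highest fold enrichment. Sequence at MafA summits was not used here. Some markers of other islet cells are not reported here.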

Additional observations from a re-analysis of the deposited data

How the results depend on the processing

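The number of genes with a MafA region, 7, was 6 to 8 over 5 other settings and 7 to 10 when a MafA library was left out. The genes with an H3K4me3 region numbered 8 or 9 under every setting run. The 56 MafA regions fell to 25 for the 16020 peaks of every library strongest by fold enrichment, where fewer peaks entered. They ranged from 67 to 96 when a MafA library was left out. The same strongest peaks gave an H3K4me3 overlap of 0% and a median highest fold enrichment of 10.1, which was 10.5 with 50 kb either side. Leaving out a library gave an overlap of 3.57 to 5.97% and a median of 8.38 to 9.91. Without Glis3, a setting chosen after seeing the data, there were 35 regions and the median was 9.25. In the promoters, TGCTGA was at 1 gene, TGCTGAC at 0 and the outer T-MARE and C-MARE letters at 3 and 1. With a −log10 q of at least 5, Glis3 had 13 regions and among the strongest peaks 6, while Wfs1 had 0 there; the cause was not tested. The highest percentile of any region of a gene was also taken by fragments and by −log10 q. It left that by fold enrichment by more than the replicate spread in 9 of 14 cases. Different regions can give these values, so the 9 do not follow single regions. The Cdkal1 region strongest by fold enrichment stood at the 90.5th percentile by that measure and at the 45.9th by fragments. No paired analysis was possible because the results come from no test. MafA summits with few fragments limit what single-replicate peaks show. A planned search for MAF letters at MafA summits was not run.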
